A study of Mus musculus with 19 samples.

Results

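Epididymal white adipose tissue (eWAT), the visceral fat pad beside the testis, was compared between mice on a high fat diet low in Mg2+ (LowMg-HFD, n = 5) and mice on a low fat diet with the same low Mg2+ content (LowMg-LFD, n = 5). These 10 of the 19 samples in the series were taken by their diet labels, not by any measured value, and the comparison covered every gene with enough signal, 8336 of 24237. All mice were male C57BL6/J, allocated at 9 to 10 weeks of age and fed for 17 weeks. The LowMg diets held 0.03% (wt/wt) magnesium oxide, and palm oil gave 60% of the energy in LowMg-HFD and 10% in LowMg-LFD. The other groups, NormMg-HFD (n = 5) and NormMg-LFD (n = 4), received the same fats with 0.21% magnesium oxide. The low Mg2+ content of the diet was thus shared by both groups compared, and the fat content differed. The Mg2+ level reached in each mouse is not among the values analysed here. The samples are whole tissue, 1 library for each mouse, so that fewer cells of a type and less RNA in each cell cannot be told apart.

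White adipocytes take up dietary fatty acids, esterify them to triacylglycerol and release them by lipolysis, and they also make fatty acids from glucose, a pathway that dietary fat is known to lower. As a fat pad enlarges, adipocytes secrete more leptin, and macrophages gather around stressed or dying adipocytes, take up their lipid and express a set of lysosomal and lipid handling genes. Enlarged fat pads are also known to deposit collagen around their cells.

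The libraries held 12986441 to 13027028 reads and 87.36% to 89.67% of these mapped in the LowMg groups. Markers of adipocytes were high in all 10 mice, with a summed level of 19935 to 25759 FPKM (fragments per kilobase of transcript, scaled to the mapped reads of the library) over 12 genes in LowMg-LFD and 18573 to 23920 FPKM in LowMg-HFD, and none of the 12 passed the test. Adipoq, the gene for adiponectin, was read at 2099, 2473, 2315, 2246 and 2569 FPKM in the LowMg-LFD mice and 2169.7, 1776, 2373, 1451 and 2381 FPKM in the LowMg-HFD mice, values that overlapped (adjusted p = 0.398). LowMg-HFD replicate 4 stood apart: 20 testis markers such as protamines summed to 4577 FPKM in it, against 9.90 to 55.6 FPKM in the other 4 LowMg-HFD mice and 21.2 to 221 FPKM in LowMg-LFD. None of those 20 genes was among the genes tested, and the mouse also had the lowest summed adipocyte markers of its group. LowMg-LFD replicate 4 also stood apart, with 17 epididymis markers at a summed 192 FPKM (13 of them over 1 FPKM) against 10.1 to 51.3 FPKM (1 gene each) in the rest of its group. Mesothelial markers summed to 124 FPKM in it and 25.2 to 43.8 FPKM in the rest of its group, and to 111 FPKM in LowMg-HFD replicate 4 and 22.6 to 55.7 FPKM in the other LowMg-HFD mice. Of both marker lists 1 gene each was tested and neither was called. Where a count of list members below differs without LowMg-HFD replicate 4, called replicate 4 where no group is named, that value is given too, and counts are given without LowMg-LFD replicate 4 where that moved them by over 1.5 times. Of the 90 genes called and named below with a fold change, 1 (Nipa2) lost its call without LowMg-HFD replicate 4 and none without LowMg-LFD replicate 4. Without the former no fold change of the 90 moved by more than 0.43 on the log2 scale (Mmp12). Exocrine pancreas markers summed to 70.8 FPKM in LowMg-HFD replicate 4, 24.1 to 51.3 FPKM in the rest of its group and 23.4 to 66.2 FPKM in LowMg-LFD, while 1 NormMg-LFD mouse, which enters the fit but not this comparison, held 2105 FPKM.

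Between LowMg-HFD and LowMg-LFD 1329 genes differed, 15.9% of those tested, at an adjusted p under 0.05. The test was limma on log2(FPKM + 1) with Benjamini-Hochberg adjustment over all 8336 genes. Its p-values rest on a spread between mice pooled over the 4 diet groups, NormMg mice included, and not on the LowMg mice alone. The labels name no cage, so that an effect of shared housing was not tested. Of the 1329 genes, 1036 (12.4% of genes tested) were higher and 293 (3.51%) lower in LowMg-HFD. Without replicate 4 the counts were 1156 (13.9%) and 314 (3.77%), and 918 higher (11.0%) and 253 lower genes (3.04%) were called both ways. The count was 873 without LowMg-HFD replicate 1, 807 without LowMg-HFD replicate 2 and 835 without LowMg-LFD replicate 1, and a fit of the 10 LowMg mice alone called 725. Without LowMg-LFD replicate 4 it was 1293 (1022 higher and 271 lower). A gene was tested if it was over 8 FPKM in any 1 of the 4 diet groups, and 890 of the 8336 passed in high fat groups alone, 275 of which were among the 1036 higher genes. A gene that passed in this way was chosen for being high on fat, so that its rise is not independent of the filter. In the same way 213 genes passed in low fat groups alone, 23 of them among the 293 lower genes. Of the 99 genes named below with a fold change, 24 passed in high fat groups alone (22 called higher) and 7 in low fat groups alone (6 called lower). The values of the 5 LowMg-HFD mice lay wholly above or below those of the 5 LowMg-LFD mice for 775 genes (9.3% of genes tested), 583 of them higher (6.99%) and 192 lower (2.3%), and without replicate 4 for 1225 (14.7%). A log2 fold change over 1 in size was found for 190 of the higher and 37 of the lower genes (221 and 36 without replicate 4). Over all genes tested the median log2 fold change was 0.097, and 78.0% of calls were higher. After each mouse was centred on its median the split became 593 higher and 531 lower (52.8% higher), and after quantile normalization 549 and 530 (50.9%), so that the excess of rises depended on the scaling.

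Principal components of the genes tested placed the LowMg-HFD mice between the low fat mice and the NormMg-HFD mice, a placement that depended on the filter. Component 1, which held 51.5% of the variance, scored -35.5, -23.2, -23.3, -21.1 and -21.5 in LowMg-LFD replicates 1 to 5 and 19.1, 21.0, -7.81, -2.55 and -1.27 in LowMg-HFD replicates 1 to 5. No LowMg-HFD score fell within the LowMg-LFD range. The SD of the scores was 13.4 in LowMg-HFD and 4.75 to 7.10 in the other groups, whereas the gene test pooled the spread over all groups. Setting the mean of LowMg-LFD at 0% and that of NormMg-HFD at 100%, the LowMg-HFD mice lay at 49.2% ± 21.5 (SD, n = 5). Replicates 1 and 2 lay at 70.7% and 73.8%, and the other 3 mice between 27.5% and 38.0%. With no filter on low genes the group mean lay at -8.19%, outside this interval. LowMg-HFD replicate 4 differed from its group along component 2, at -24.7 where the rest of its group ranged from 3.13 to 9.21.

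**Figure D1:**
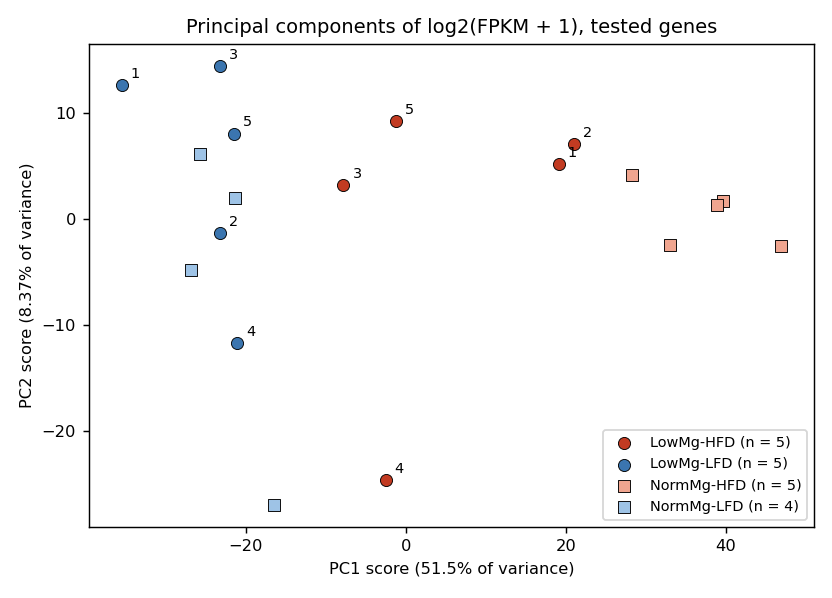
Scores of the 19 mice on the first 2 principal components of log2(FPKM + 1) over the genes tested, with the percent of variance on each axis. Circles are LowMg and squares NormMg mice, and numbers give the replicate of the LowMg mice. The 5 LowMg-HFD mice sit to the right of all LowMg-LFD mice and to the left of all NormMg-HFD mice, with replicates 1 and 2 nearest to the NormMg-HFD mice and replicate 4 low on component 2.

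Genes of de novo lipogenesis, the synthesis of fatty acids from acetyl-CoA, were mostly called lower in LowMg-HFD. Of 16 members tested, 11 fell and none rose (10 fell without replicate 4), beside 3.51% of all genes. The median log2 fold change of the 16 was -1.004, and all were negative. Fasn, the fatty acid synthase gene (chromosome 11, 120805846 to 120824547, minus strand, GRCm38, GENCODE M21), was read at 2987, 715, 2318, 771 and 1501 FPKM in the LowMg-LFD mice and 308, 517, 534, 622 and 539 FPKM in the LowMg-HFD mice, in order of replicates 1 to 5 as throughout. The groups did not overlap (log2 fold change -1.53 ± 0.32 (SE), adjusted p = 0.00332). LowMg-LFD replicates 1, 3 and 5 were far above the other 2 mice of their group, and LowMg-HFD replicate 1 was the lowest of all. Acaca, acetyl-CoA carboxylase 1, which makes malonyl-CoA for fatty acid synthase, was read at 452, 150.4, 342, 169.5 and 226 FPKM in the LowMg-LFD mice and 55.02, 56.1, 79.7, 57.6 and 74.04 FPKM in the LowMg-HFD mice. Each LowMg-HFD value was under every LowMg-LFD value (log2 fold change -1.93 ± 0.24 (SE), adjusted p = 0.000286). Acacb, the carboxylase at the mitochondrial surface whose malonyl-CoA restrains fatty acid entry, was read at 55.4, 59.03, 44.1, 79.6 and 45.7 FPKM in the LowMg-LFD mice and 22.1, 24.4, 25.4, 18.1 and 17.7 FPKM in the LowMg-HFD mice, again without overlap (log2 fold change -1.34 ± 0.19 (SE), adjusted p = 0.000403). Elovl6, the elongase of saturated 16-carbon chains, was read at 71.4, 9.35, 36.4, 12.3 and 15.4 FPKM in the LowMg-LFD mice and 5.26, 8.24, 5.28, 9.15 and 6.63 FPKM in the LowMg-HFD mice. The LowMg-LFD values spread over a wide range and the lowest lay just above the highest LowMg-HFD value (log2 fold change -1.55 ± 0.38 (SE), adjusted p = 0.00939), and the gene passed the filter in low fat groups alone. Scd1, the desaturase that makes oleate, was among the most abundant transcripts, at 19061, 12760.2, 15085, 11323 and 13059.6 FPKM in the LowMg-LFD mice and 6743, 6763, 8593, 5859 and 9923 FPKM in the LowMg-HFD mice. These did not overlap either (log2 fold change -0.91 ± 0.19 (SE), adjusted p = 0.00303).

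Other members of the list differed in whether they were called. Me1, malic enzyme, which makes NADPH, and Slc25a1, which exports citrate from mitochondria, did not pass, nor did Elovl5, Pnpla3 and Scd2. Acly, ATP citrate lyase, was read at 762, 118, 587, 113 and 279 FPKM in the LowMg-LFD mice and 71.4, 87.4, 99.1, 99.1 and 121 FPKM in the LowMg-HFD mice, and the top LowMg-HFD mouse lay above the lowest 2 LowMg-LFD mice (log2 fold change -1.55 ± 0.39 (SE), adjusted p = 0.0111). Aacs, which activates acetoacetate for lipid synthesis, was read at 117, 80.1, 137, 97.8 and 101 FPKM in the LowMg-LFD mice and 41.2, 49.6, 59.1, 49.5 and 47.99 FPKM in the LowMg-HFD mice, with no overlap and little spread within groups (log2 fold change -1.08 ± 0.14 (SE), adjusted p = 0.000286). Tkt, transketolase of the pentose phosphate pathway, which is not on the list and was among the largest falls, fell from 412 ± 225 to 142 ± 15.6 FPKM (mean ± SD, n = 5; log2 fold change -1.37 ± 0.26 (SE), adjusted p = 0.00224). Thrsp, a nuclear protein induced with the lipogenic genes, fell by 1.24 on the log2 scale (adjusted p = 0.00715) with values that overlapped in 1 pair of mice. Both transcription factors of the pathway were called: Srebf1, the sterol regulatory element binding protein 1 gene (log2 fold change -0.57 ± 0.11 (SE), adjusted p = 0.00244), and Mlxipl, which encodes the carbohydrate responsive factor ChREBP (log2 fold change -0.93 ± 0.17 (SE), adjusted p = 0.00177). The mean log2(FPKM + 1) of the 16 genes was 8.47, 7.16, 8.29, 7.31 and 7.75 in LowMg-LFD and 6.42, 6.82, 6.89, 6.86 and 6.94 in LowMg-HFD. No LowMg-HFD mouse reached the lowest LowMg-LFD mouse, and LowMg-LFD replicates 1 and 3 were the highest. In a fit of the 10 LowMg mice alone, 8 of the 16 were called, and the calls of Acly (adjusted p = 0.0675) and Elovl6 (adjusted p = 0.054) were lost. With no filter on low genes the call of Scd1 was lost (adjusted p = 0.146).

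**Figure D2:**
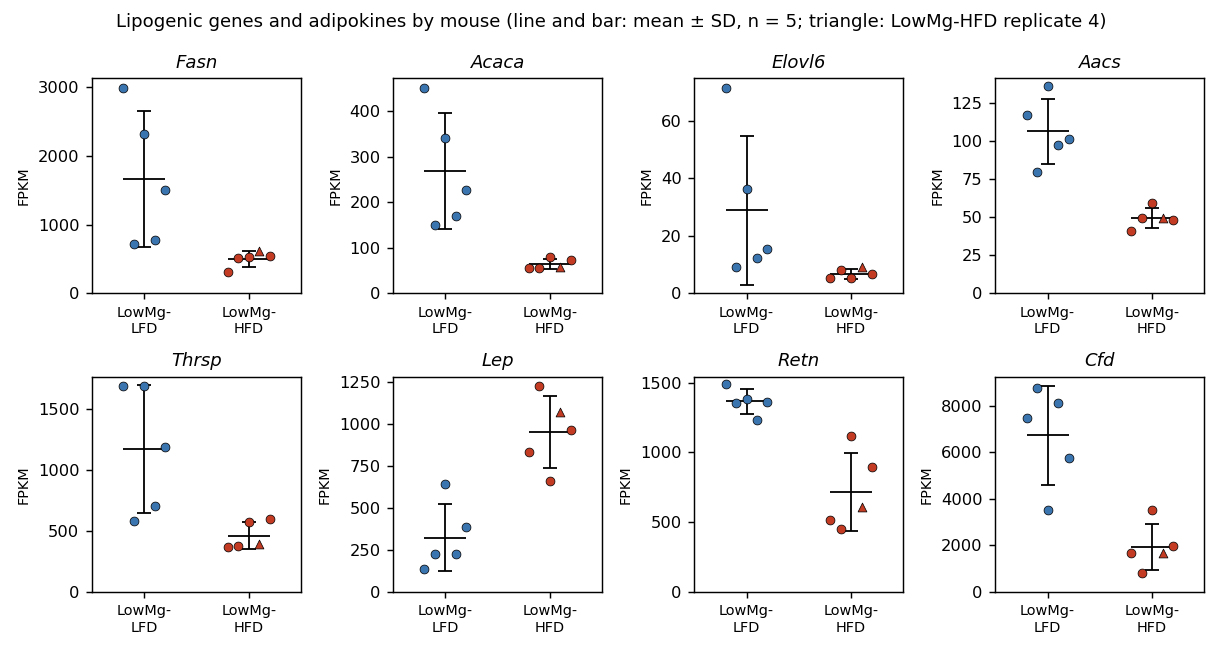
FPKM of 5 lipogenic genes and 3 adipokine genes in each of the 5 LowMg-LFD (blue) and 5 LowMg-HFD (red) mice. Horizontal lines and bars are the mean and SD, and the triangle is LowMg-HFD replicate 4. Fasn, Acaca, Elovl6, Aacs, Retn and Lep do not overlap between groups, Lep being the one that is higher in LowMg-HFD, while Thrsp and Cfd overlap.

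The promoter of Fasn is shown because its product makes the fatty acid chain and because it is known for inverted CCAAT motifs. The 120 bases before its start in RefSeq (GRCm38.p6, chr11:120824548-120824667, minus strand), 5′ to 3′ on the strand of the gene with CCAAT or its reverse complement ATTGG in capitals, hold 3 matches, 2 of which overlap.
Fasn: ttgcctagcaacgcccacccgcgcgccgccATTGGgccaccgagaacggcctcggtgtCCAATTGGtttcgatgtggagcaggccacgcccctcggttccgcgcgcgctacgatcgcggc
Either motif occurs in the same window of 21.3% of the 32851 promoters in the RefSeq table, and of 7 of 18 promoters (38.9%) of the 14 lipogenic genes matched there. A match is a run of letters, and binding was not measured.

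Triacylglycerol synthesis and lipolysis, which load and empty the lipid droplet, held fewer calls. Of 12 synthesis genes 3 fell and none rose, with and without replicate 4, beside 3.51% and 12.4% of all genes. Mogat1, a monoacylglycerol acyltransferase, was read at 41.1, 44.5, 34.9, 43.05 and 41.6 FPKM in the LowMg-LFD mice and 12.8, 9.59, 24.2, 20.4 and 17.6 FPKM in the LowMg-HFD mice, without overlap (log2 fold change -1.29 ± 0.23 (SE), adjusted p = 0.00156). Gpam, the mitochondrial acyltransferase of the first step, was 76.7 ± 14.6 FPKM in LowMg-LFD and 46.98 ± 10.5 FPKM in LowMg-HFD mice (log2 fold change -0.70 ± 0.16 (SE), adjusted p = 0.00566), with values that overlapped. Among 10 lipolysis genes 5 fell (Abhd5, Adrb3, Ces1d, Pde3b and Pnpla2) and none rose, beside the same shares of all genes. Without replicate 4 only Abhd5 and Adrb3 were called, and without LowMg-HFD replicate 1, LowMg-LFD replicate 2 or LowMg-LFD replicate 4 only 1 of the 10, and in the fit of LowMg mice alone 2. Adrb3, the β3-adrenergic receptor that starts lipolysis in adipocytes, was read at 582, 532, 469, 457 and 612 FPKM in the LowMg-LFD mice and 231, 117, 392, 139 and 398 FPKM in the LowMg-HFD mice. Every LowMg-HFD mouse was under the lowest LowMg-LFD mouse, and replicates 2 and 4 were lowest (log2 fold change -1.22 ± 0.31 (SE), adjusted p = 0.0122; without replicate 4 -1.04, adjusted p = 0.0284). Lipe, hormone sensitive lipase, did not pass (log2 fold change -0.25 ± 0.14 (SE), adjusted p = 0.241), nor did Plin1, which encodes the droplet coat protein perilipin 1 (log2 fold change -0.31 ± 0.12 (SE), adjusted p = 0.082).

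Fatty acid oxidation genes held few calls, in both directions. Of 20 tested, 2 rose (Acadl and Cpt1a) and 3 fell (Acadvl, Echs1 and Eci1), against 12.4% and 3.51% of all genes, and the median log2 fold change was -0.023. Without replicate 4 the calls were Cpt1a, Echs1 and Eci1, and 1 gene rose whenever any single LowMg mouse other than LowMg-HFD replicate 3 or LowMg-LFD replicate 1 was left out and in the fit of LowMg mice alone. Cpt1a, the carnitine acyltransferase that admits long chains to the mitochondrion and that malonyl-CoA inhibits, was read at 27.4, 30.3, 20.8, 27.4 and 30.4 FPKM in the LowMg-LFD mice and 47.98, 50.6, 34.5, 35.96 and 38.8 FPKM in the LowMg-HFD mice. All LowMg-HFD values were the higher (log2 fold change 0.59 ± 0.11 (SE), adjusted p = 0.00238). Echs1, enoyl-CoA hydratase, fell from 190.1 ± 16.01 to 135 ± 17.3 FPKM (log2 fold change -0.50 ± 0.092 (SE), adjusted p = 0.0019), and Eci1, an enoyl-CoA isomerase for unsaturated chains, from 103 ± 11.2 to 73.99 ± 6.04 FPKM (log2 fold change -0.47 ± 0.095 (SE), adjusted p = 0.00306).

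Transcripts for the catabolism of branched-chain amino acids, a source of acetyl-CoA in adipocytes, were called lower at several steps. Of 22 genes tested 11 fell and 1 rose, beside 3.51% and 12.4% of all genes. The counts were the same without replicate 4, and 21 of the 22 fold changes were negative. Bcat2, the mitochondrial transaminase of the first step, was read at 119.6, 140.1, 81.4, 147 and 118 FPKM in the LowMg-LFD mice and 59.8, 55.03, 86.8, 63.5 and 72.6 FPKM in the LowMg-HFD mice. LowMg-LFD replicate 3 fell among the LowMg-HFD values, and the other 4 mice lay above them (log2 fold change -0.82 ± 0.14 (SE), adjusted p = 0.00145). Bckdha, a subunit of the branched-chain ketoacid dehydrogenase, did not overlap between groups (log2 fold change -0.47 ± 0.092 (SE), adjusted p = 0.00263). Further down, Ivd, the isovaleryl-CoA dehydrogenase (log2 fold change -0.67 ± 0.16 (SE), adjusted p = 0.00815), Mccc1 of leucine breakdown (log2 fold change -0.54 ± 0.10 (SE), adjusted p = 0.00237) and Aldh6a1 of valine breakdown (log2 fold change -0.62 ± 0.13 (SE), adjusted p = 0.00403) were lower. Bcat1, the cytosolic transaminase, was the member that rose, from 3.51 ± 1.64 to 7.87 ± 2.09 FPKM (log2 fold change 1.02 ± 0.24 (SE), adjusted p = 0.008), and it passed the filter in NormMg-HFD only.

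Some mitochondrial energy genes were called lower, by small amounts. Of 31 nuclear oxidative phosphorylation genes 17 fell and none rose, beside 3.51% and 12.4% of all genes. The falls were 21 without replicate 4, 11 without LowMg-LFD replicate 1 and 8 in the fit of LowMg mice alone. The median log2 fold change of the 31 genes was -0.28, and all were negative. Uqcrc2 of complex III was read at 132, 97.9, 121, 114 and 109 FPKM in the LowMg-LFD mice and 68.98, 67.5, 92.8, 90.98 and 76.99 FPKM in the LowMg-HFD mice, with no overlap (log2 fold change -0.53 ± 0.11 (SE), adjusted p = 0.00283). Sdhb of complex II (log2 fold change -0.39 ± 0.086 (SE), adjusted p = 0.00519) and Atp5b of the ATP synthase (log2 fold change -0.34 ± 0.087 (SE), adjusted p = 0.0123) moved by less, and in the fit of LowMg mice alone Atp5b missed the threshold (adjusted p = 0.0631). Mitochondrially encoded genes took 9.59% to 13.5% of summed FPKM in LowMg-LFD mice and 6.87% to 9.18% in LowMg-HFD mice, and their part in the result was not tested. In the tricarboxylic acid cycle 10 of 19 genes fell and none rose (11 without replicate 4, 7 in the fit of LowMg mice alone), beside the same shares of all genes. Of the 19 fold changes 3 were positive. Pcx, pyruvate carboxylase, which feeds oxaloacetate to citrate, was read at 705, 367, 486, 354 and 429 FPKM in the LowMg-LFD mice and 222, 252, 292, 231 and 282 FPKM in the LowMg-HFD mice, with no overlap (log2 fold change -0.83 ± 0.17 (SE), adjusted p = 0.00312). Pdha1 of pyruvate dehydrogenase fell by 0.71 ± 0.13 (SE) on the log2 scale (adjusted p = 0.00192) and Cs, citrate synthase, by 0.47 ± 0.12 (adjusted p = 0.0119).

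Cholesterol synthesis and insulin signalling held few calls. Of 21 sterol genes 1 rose and none fell (beside 12.4% and 3.51% of all genes), Hmgcs1, the HMG-CoA synthase, at 80.4 ± 30.1 FPKM in LowMg-LFD and 135 ± 24.3 FPKM in LowMg-HFD mice (log2 fold change 0.81 ± 0.21 (SE), adjusted p = 0.0118). Leaving out LowMg-LFD replicate 3 brought 4 rises, and the fit of LowMg mice alone none (Hmgcs1 adjusted p = 0.0597). Of 13 insulin signalling and glucose uptake genes 3 fell (Gys1, Insr and Pik3r1) and none rose, beside 3.51% and 12.4% of all genes. The count of falls was 2 without replicate 4, 1 without LowMg-HFD replicate 1 or 2 and 5 without LowMg-HFD replicate 3 or after either scaling. Gys1, glycogen synthase, was read at 54.03, 55.7, 48.1, 50.8 and 49.2 FPKM in the LowMg-LFD mice and 28.4, 30.6, 38.9, 31.2 and 35.02 FPKM in the LowMg-HFD mice, with no overlap (log2 fold change -0.64 ± 0.10 (SE), adjusted p = 0.000733). Slc2a4, the insulin responsive glucose transporter GLUT4, was lower in all 5 LowMg-HFD mice than in any LowMg-LFD mouse but missed the threshold (log2 fold change -0.51 ± 0.17 (SE), adjusted p = 0.0513). Among 11 adipogenic transcription factors, beside 12.4% higher and 3.51% lower of all genes, 2 rose (Cebpb and Zfp423) and 2 fell (Ebf2, which passed the filter in low fat groups alone, and Klf15), but after median centring none rose and 3 fell. None rose without LowMg-HFD replicate 2 or 5 or LowMg-LFD replicate 1 or 4, while 1 fell without LowMg-HFD replicate 2 or LowMg-LFD replicate 1 or 2, and 4 fell without LowMg-HFD replicate 3. The fit of LowMg mice alone gave 1 in each direction. Klf15, a factor of amino acid and lipid metabolism, was 26.7 ± 3.02 FPKM in LowMg-LFD and 17.2 ± 4.85 FPKM in LowMg-HFD mice (log2 fold change -0.64 ± 0.17 (SE), adjusted p = 0.0151).

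**Figure D3:**
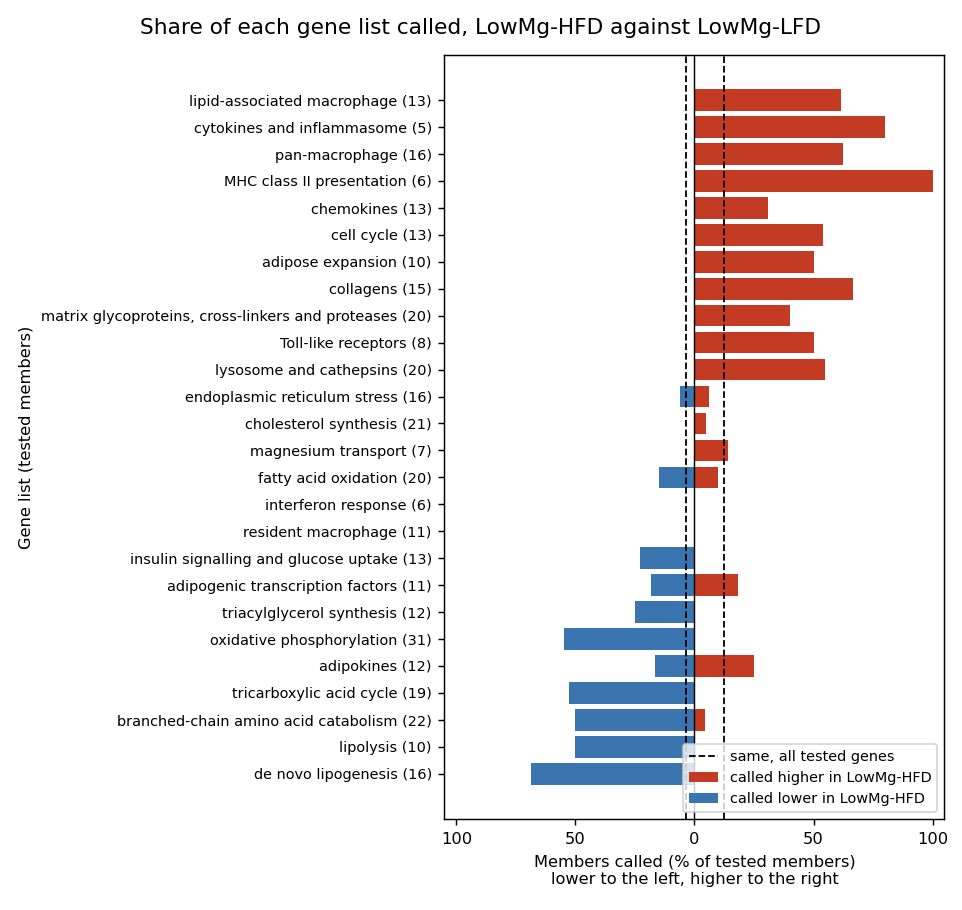
Percent of the tested members of each gene list called higher (red, to the right) or lower (blue, to the left) in LowMg-HFD than in LowMg-LFD at an adjusted p under 0.05, with the number of tested members in brackets and lists ordered by median log2 fold change. Dashed lines mark the shares over all genes tested, 12.4% higher and 3.51% lower. Pan-macrophage, lipid-associated macrophage, MHC class II, collagen and lysosome lists lie to the right, the resident macrophage list has no bar, and lipogenesis, mitochondrial and branched-chain amino acid lists to the left.

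Some secreted adipokines were called, in both directions. Of 12 tested, 3 rose (Lep, Apln and Rarres2) and 2 fell (Retn and Cfd), beside 12.4% and 3.51% of all genes, and 7 were not called. The counts were 4 and 2 without replicate 4, and 2 and 3 after median centring. Lep, the gene for leptin (chromosome 6, 29060220 to 29073877, plus strand), was read at 138, 223, 644, 224 and 384 FPKM in the LowMg-LFD mice and 835, 1226, 663, 1072 and 964 FPKM in the LowMg-HFD mice. The highest LowMg-LFD mouse, replicate 3, lay close under the lowest LowMg-HFD mouse, also numbered 3 (log2 fold change 1.73 ± 0.28 (SE), adjusted p = 0.000869). Apln, the vasoactive peptide apelin, was read at 3.37, 3.40, 4.48, 3.48 and 3.0 FPKM in the LowMg-LFD mice and 8.90, 9.46, 9.0, 7.85 and 11.3 FPKM in the LowMg-HFD mice, with no overlap (log2 fold change 1.18 ± 0.17 (SE), adjusted p = 0.000403), but it passed the filter in high fat groups alone. Rarres2, chemerin, a chemoattractant, was 311 ± 57.6 FPKM in LowMg-LFD and 435 ± 24.4 FPKM in LowMg-HFD mice (log2 fold change 0.50 ± 0.13 (SE), adjusted p = 0.0126), a call lost when mice were centred on their medians (adjusted p = 0.0785). Retn, resistin, was read at 1489, 1349.8, 1385, 1234 and 1364 FPKM in the LowMg-LFD mice and 513, 451, 1117, 604 and 897 FPKM in the LowMg-HFD mice. LowMg-HFD replicates 1, 2 and 4 were lowest and replicate 3 came nearest to the low fat mice (log2 fold change -1.01 ± 0.21 (SE), adjusted p = 0.00303). Cfd, the complement factor adipsin that adipocytes secrete in quantity, was read at 7483, 8766, 3501, 8133 and 5779 FPKM in the LowMg-LFD mice and 1652, 806, 3539, 1667 and 1963 FPKM in the LowMg-HFD mice, where LowMg-LFD replicate 3 fell just under LowMg-HFD replicate 3 and no other pair overlapped (log2 fold change -1.89 ± 0.32 (SE), adjusted p = 0.00126).

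Genes known to rise in expanding fat held some of the larger rises. Of 10 tested, 5 rose (Bmp3, Fgf1, Mest, Npr3 and Sfrp5) and none fell, beside 12.4% and 3.51% of all genes, with 6 rises without replicate 4. Mest, an imprinted gene that marks adipocyte enlargement (chromosome 6, 30723547 to 30748465, plus strand), was read at 55.95, 124, 95.96, 71.2 and 87.3 FPKM in the LowMg-LFD mice and 397, 624, 215, 312 and 363 FPKM in the LowMg-HFD mice. The lowest LowMg-HFD mouse was well above the highest LowMg-LFD mouse (log2 fold change 2.09 ± 0.29 (SE), adjusted p = 0.000395). Sfrp5, a secreted antagonist of Wnt signals, was read at 6.26, 34.5, 54.9, 17.1 and 56.1 FPKM in the LowMg-LFD mice and 346, 311, 143, 138 and 239 FPKM in the LowMg-HFD mice. This was the third largest rise by the selection described below, and LowMg-LFD replicate 1 was the lowest mouse (log2 fold change 3.02 ± 0.47 (SE), adjusted p = 0.000743). Bmp3, a bone morphogenetic protein, was read at 2.70, 5.12, 10.7, 1.77 and 5.32 FPKM in the LowMg-LFD mice and 24.7, 18.9, 10.6, 13.3 and 15.3 FPKM in the LowMg-HFD mice, with 1 overlap between mice numbered 3 (log2 fold change 1.64 ± 0.33 (SE), adjusted p = 0.00291), and it passed the filter in high fat groups alone. Npr3, the clearance receptor for natriuretic peptides, was 152 ± 55.01 FPKM in LowMg-LFD and 244 ± 30.3 FPKM in LowMg-HFD mice, also with overlap at LowMg-LFD replicate 3 (log2 fold change 0.75 ± 0.17 (SE), adjusted p = 0.00687).

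Most pan-macrophage genes tested were called higher. Of 16, 10 rose and none fell (11 without replicate 4), against 12.4% of all genes, while Aif1, Cd14, Fcgr1, Laptm5, Mertk and Msr1 were not called and 2 fold changes were negative. The mean log2(FPKM + 1) over the 16 genes overlapped between groups, with LowMg-HFD replicate 4 at 4.92 under LowMg-LFD replicate 4 at 5.01, and was 6.18 and 6.06 in LowMg-HFD replicates 1 and 2. The median log2 fold change of the 16 was 0.83, or 1.03 without replicate 4. Adgre1, the F4/80 antigen (chromosome 17, 57358691 to 57483527, plus strand), was read at 11.4, 16.2, 13.97, 17.3 and 16.5 FPKM in the LowMg-LFD mice and 70.2, 57.8, 23.6, 18.9 and 29.1 FPKM in the LowMg-HFD mice. All 5 high fat values were higher, replicate 4 by little and replicates 1 and 2 by most (log2 fold change 1.18 ± 0.27 (SE), adjusted p = 0.00608). Cd68, a glycoprotein of macrophage lysosomes, was read at 19.96, 43.5, 24.2, 49.6 and 30.1 FPKM in the LowMg-LFD mice and 209, 192, 58.4, 56.7 and 66.9 FPKM in the LowMg-HFD mice, with replicates 1 and 2 far above the other 3 mice (log2 fold change 1.60 ± 0.34 (SE), adjusted p = 0.00381). Lyz2, lysozyme, was 369 ± 77.7 FPKM in LowMg-LFD and 707 ± 239 FPKM in LowMg-HFD mice (log2 fold change 0.89 ± 0.20 (SE), adjusted p = 0.00608). Csf1r, the receptor for the macrophage growth factor, was 45.5 ± 8.32 FPKM in LowMg-LFD and 69.7 ± 17.1 FPKM in LowMg-HFD mice (log2 fold change 0.59 ± 0.16 (SE), adjusted p = 0.0165), a call lost without LowMg-HFD replicate 1 (adjusted p = 0.055), LowMg-HFD replicate 2 (adjusted p = 0.0575) or LowMg-LFD replicate 1 (adjusted p = 0.0557), in the fit of LowMg mice alone (0.067) and with no filter (0.0502).

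Genes expressed by lipid laden macrophages were higher in part. Of 13 tested, with a median log2 fold change of 1.68, 8 rose and none fell, beside 12.4% and 3.51% of all genes. Acp5, Cd63, Cd9, Fabp5 and Plin2 were not called, and 1 fold change was negative. Without replicate 4, 9 rose, and after either scaling 7 rose and 1 fell. Of the 8, 6 (Atp6v0d2, Gpnmb, Itgax, Mmp12, Spp1 and Trem2) passed the filter in high fat groups alone, so that neither the count nor the median is independent of it. Trem2, the lipid sensing receptor of these cells (chromosome 17, 48346401 to 48354147, plus strand), was read at 4.34, 11.9, 3.19, 11.5 and 8.04 FPKM in the LowMg-LFD mice and 110.1, 99.4, 21.1, 21.7 and 25.3 FPKM in the LowMg-HFD mice. The groups did not overlap (log2 fold change 2.43 ± 0.44 (SE), adjusted p = 0.00168; without replicate 4 2.66, adjusted p = 0.00103). Gpnmb, a transmembrane protein of lysosome rich macrophages, was read at 4.81, 13.3, 5.50, 19.9 and 12.5 FPKM in the LowMg-LFD mice and 339, 262, 30.8, 26.1 and 50.4 FPKM in the LowMg-HFD mice, so that replicates 1 and 2 held over 5 times the level of the next LowMg-HFD mouse (log2 fold change 2.93 ± 0.59 (SE), adjusted p = 0.00299). Itgax, the CD11c integrin, was read at 1.91, 3.57, 1.59, 3.52 and 3.96 FPKM in the LowMg-LFD mice and 55.6, 42.4, 8.70, 7.61 and 15.6 FPKM in the LowMg-HFD mice, in the same order (log2 fold change 2.42 ± 0.40 (SE), adjusted p = 0.000984). Mmp12, the macrophage elastase, was read at 2.77, 12.9, 4.21, 10.6 and 10.3 FPKM in the LowMg-LFD mice and 319, 220.2, 39.3, 26.2 and 69.6 FPKM in the LowMg-HFD mice and was the largest rise of the genes named (log2 fold change 3.44 ± 0.57 (SE), adjusted p = 0.00093). Ctsk, cathepsin K, was 9.06 ± 2.55 FPKM in LowMg-LFD and 42.8 ± 31.8 FPKM in LowMg-HFD mice (log2 fold change 1.84 ± 0.36 (SE), adjusted p = 0.00253), and Atp6v0d2, a subunit of the vacuolar proton pump, was 2.03 ± 0.829 FPKM in LowMg-LFD and 25.2 ± 25.4 FPKM in LowMg-HFD mice (log2 fold change 2.50 ± 0.49 (SE), adjusted p = 0.00272). The mean log2(FPKM + 1) over the 13 genes was 4.16, 4.72, 4.14, 4.85 and 4.51 in LowMg-LFD and 7.07, 6.87, 5.19, 5.36 and 5.59 in LowMg-HFD.

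Markers of resident adipose macrophages held no call. Of 11 tested, among them Cd163, Folr2, Lyve1 and Mrc1, none passed over all mice, beside 12.4% higher and 3.51% lower of all genes. Without replicate 4, 1 (Selenop) rose. Their median log2 fold change was -0.11. Mrc1, the mannose receptor, was read at 19.7, 34.1, 30.5, 40.6 and 30.8 FPKM in the LowMg-LFD mice and 43.1, 36.5, 39.9, 28.7 and 37.95 FPKM in the LowMg-HFD mice, which overlapped (adjusted p = 0.303). Markers of T and B lymphocytes were all under the filter, with summed levels of 13.5 to 25.7 FPKM in LowMg-LFD and 16.5 to 39.7 FPKM in LowMg-HFD. Neutrophil markers summed to 6.54 to 13.4 FPKM in LowMg-LFD and 10.8 to 23.6 FPKM in LowMg-HFD. Of 10 endothelial markers 1 rose (Cdh5), and none after scaling, in the fit of LowMg mice alone or without LowMg-HFD replicate 1 or 5 or LowMg-LFD replicate 3 or 4 (beside 12.4% of all genes), and of 11 stromal progenitor markers 1 rose over all mice, 3 without replicate 4 and 2 without LowMg-LFD replicate 4. Icam1, which passed the filter in high fat groups alone, was the stromal member called in both (log2 fold change 0.51 ± 0.14 (SE), adjusted p = 0.0151), and its call was lost in the fit of LowMg mice alone (adjusted p = 0.0598).

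Genes of MHC class II, which presents peptides to helper T cells, were higher. All 6 members that passed the filter rose, beside 12.4% of all genes. They did so with and without replicate 4 and each time 1 LowMg mouse was left out, while 6 further members were too low to test. H2-Aa, the α chain of I-A, was read at 179.7, 300.3, 210.2, 297 and 263 FPKM in the LowMg-LFD mice and 549, 523, 390.2, 284 and 409 FPKM in the LowMg-HFD mice. LowMg-HFD replicate 4 fell within the LowMg-LFD range and the other 4 mice lay above it (log2 fold change 0.77 ± 0.16 (SE), adjusted p = 0.00364). Its partner H2-Ab1, the β chain, was 171 ± 38.6 FPKM in LowMg-LFD and 298 ± 74.5 FPKM in LowMg-HFD mice (log2 fold change 0.79 ± 0.17 (SE), adjusted p = 0.00471), and H2-Eb1 of I-E was 193 ± 46.96 FPKM in LowMg-LFD and 323 ± 82.6 FPKM in LowMg-HFD mice (log2 fold change 0.74 ± 0.18 (SE), adjusted p = 0.00895). H2-DMa and H2-DMb1, the chains that exchange the peptide, did not overlap between groups, at log2 fold changes of 0.90 ± 0.16 and 1.21 ± 0.21 (SE; adjusted p = 0.00134 and 0.00147). Cd74, the invariant chain that guides the complex, was the most abundant, at 555 ± 124 FPKM in LowMg-LFD and 879.9 ± 185 FPKM in LowMg-HFD mice (log2 fold change 0.67 ± 0.16 (SE), adjusted p = 0.00963). In the fit of LowMg mice alone 4 of the 6 were called, and H2-Eb1 (adjusted p = 0.0513) and Cd74 (adjusted p = 0.051) just missed. Macrophages and dendritic cells express this class. Of the 16 pan-macrophage markers above 10 were called higher in the same comparison, and the part of these cells in the result was not tested.

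The class II promoters are shown because the 6 members moved together and the family is known for a shared upstream element that includes an inverted CCAAT box. In the 120 bases before the RefSeq start (GRCm38.p6, 5′ to 3′ on the strand of each gene, CCAAT or ATTGG in capitals), H2-Aa (chr17:34287824-34287943, minus strand), H2-Eb1 (chr17:34305747-34305866, plus strand) and H2-DMb1 (chr17:34153071-34153190, plus strand) all hold ATTGG.
H2-Aa: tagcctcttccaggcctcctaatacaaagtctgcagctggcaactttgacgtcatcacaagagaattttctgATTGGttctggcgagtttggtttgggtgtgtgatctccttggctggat
H2-Eb1: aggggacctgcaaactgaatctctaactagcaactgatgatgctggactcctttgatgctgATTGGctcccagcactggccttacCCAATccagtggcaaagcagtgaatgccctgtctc
H2-DMb1: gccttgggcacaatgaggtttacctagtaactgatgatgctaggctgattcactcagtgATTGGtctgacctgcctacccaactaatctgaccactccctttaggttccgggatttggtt
The match begins 48 bases before the start in H2-Aa and 61 in H2-DMb1, and in H2-Eb1 there are 2 matches, at 59 and 35 bases. In all, 3 of 5 promoters (60%) of the 4 members matched in the RefSeq table held either motif, beside 21.3% of all promoters in that window.

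**Figure D4:**
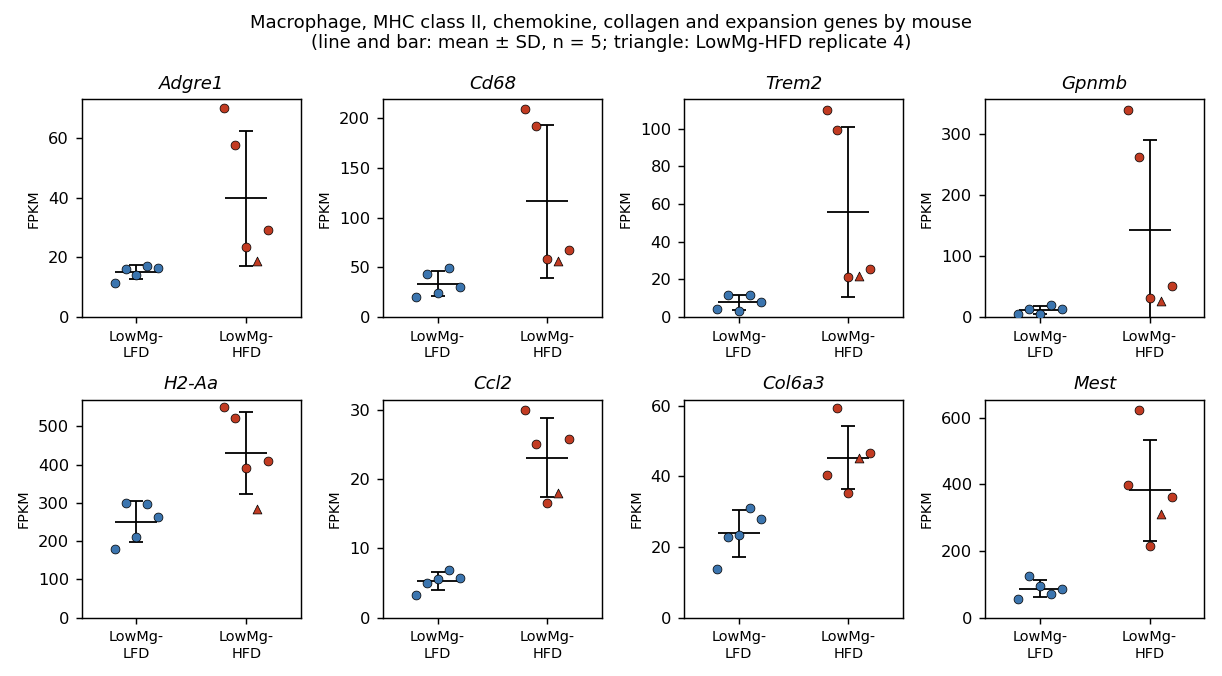
FPKM of 8 genes in each of the 5 LowMg-LFD (blue) and 5 LowMg-HFD (red) mice, with horizontal lines and bars for the mean and SD and a triangle for LowMg-HFD replicate 4. In Cd68, Trem2 and Gpnmb, LowMg-HFD replicates 1 and 2 stand far above the other 3 mice. Ccl2, Col6a3 and Mest are higher in all 5 LowMg-HFD mice, and H2-Aa overlaps at replicate 4.

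Chemokine and cytokine genes that were called were higher, and most cytokine genes were too low to test. Of 20 chemokine and receptor genes 13 were tested. Of these 4 rose (Ccl2, Ccl7, Ccl9 and Cxcl16) and none fell, beside 12.4% and 3.51% of all genes. There were 6 rises without replicate 4. The count was 2 without LowMg-HFD replicate 1 or 2 or without LowMg-LFD replicate 1, 3 or 5, after either scaling and in the fit of LowMg mice alone. Of the 4, Ccl2, Ccl7 and Cxcl16 passed the filter in high fat groups alone. Ccl2, the monocyte attractant MCP-1 (chromosome 11, 82035571 to 82037453, plus strand), was read at 3.26, 5.08, 5.57, 6.84 and 5.67 FPKM in the LowMg-LFD mice and 30.02, 25.1, 16.6, 17.98 and 25.8 FPKM in the LowMg-HFD mice. Every LowMg-HFD mouse was far above the highest LowMg-LFD mouse (log2 fold change 1.93 ± 0.25 (SE), adjusted p = 0.000286). Ccl7, a related attractant of monocytes, was read at 1.55, 3.35, 5.05, 7.65 and 4.44 FPKM in the LowMg-LFD mice and 17.4, 16.6, 11.7, 16.1 and 16.6 FPKM in the LowMg-HFD mice, also with no overlap (log2 fold change 1.72 ± 0.27 (SE), adjusted p = 0.000836). Among 5 cytokine and inflammasome genes 4 rose (Casp1, Il1rn, Saa3 and Tgfb1), and 2 without LowMg-HFD replicate 2 or LowMg-LFD replicate 1 and in the fit of LowMg mice alone. Casp1, Il1rn and Saa3 passed the filter in high fat groups alone, Il1rn in NormMg-HFD only, so that the count is no measure of the whole list of 16. Il1rn, the antagonist of the IL-1 receptor, was read at 0.49, 1.86, 1.21, 1.99 and 1.96 FPKM in the LowMg-LFD mice and 18.2, 20.97, 4.39, 2.92 and 6.83 FPKM in the LowMg-HFD mice, with replicates 1 and 2 highest (log2 fold change 1.94 ± 0.39 (SE), adjusted p = 0.00303). Casp1, the protease of the inflammasome, was 6.30 ± 0.804 FPKM in LowMg-LFD and 12.4 ± 4.34 FPKM in LowMg-HFD mice (log2 fold change 0.83 ± 0.19 (SE), adjusted p = 0.00566). Il1b, Il6, Il10 and Tnf were among the 11 listed genes too low to test. Of 8 Toll-like receptor genes 4 rose (Cd180, Ly86, Tlr13 and Tlr8), also each time 1 LowMg mouse was left out, and 2 were called in the fit of LowMg mice alone. Cd180, Tlr13 and Tlr8 passed the filter in NormMg-HFD only. Of 6 interferon response genes none passed, beside 12.4% higher and 3.51% lower of all genes.

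Collagen genes were mostly called higher in LowMg-HFD. Of 15 tested, 10 rose and none fell, beside 12.4% and 3.51% of all genes. The count was the same without replicate 4 and 8 without LowMg-HFD replicate 1, LowMg-HFD replicate 2 or LowMg-LFD replicate 1. All 15 fold changes were positive and their median was 0.53. Col6a3, a chain of the collagen VI around adipocytes (chromosome 1, 90765923 to 90843971, minus strand), was read at 13.8, 22.8, 23.4, 31.1 and 27.9 FPKM in the LowMg-LFD mice and 40.4, 59.2, 35.2, 45.2 and 46.5 FPKM in the LowMg-HFD mice. The groups did not overlap (log2 fold change 0.92 ± 0.18 (SE), adjusted p = 0.00257). Col18a1 of the basement membrane was read at 25.9, 43.6, 65.6, 39.04 and 52.3 FPKM in the LowMg-LFD mice and 74.7, 77.9, 90.7, 80.2 and 94.6 FPKM in the LowMg-HFD mice, with no overlap (log2 fold change 0.93 ± 0.16 (SE), adjusted p = 0.00147). Col1a1, a chain of fibrillar collagen I, was 41.96 ± 14.7 FPKM in LowMg-LFD and 68.5 ± 11.5 FPKM in LowMg-HFD mice (log2 fold change 0.74 ± 0.19 (SE), adjusted p = 0.0115). Col3a1, of collagen III, was 250.2 ± 63.2 FPKM in LowMg-LFD and 354 ± 55.5 FPKM in LowMg-HFD mice (log2 fold change 0.53 ± 0.17 (SE), adjusted p = 0.0388). Its call was lost without LowMg-HFD replicate 1 or 2 (adjusted p = 0.0696 and 0.117) and without LowMg-LFD replicate 1, 2, 3 or 5 (adjusted p = 0.122, 0.0623, 0.0544 and 0.0631). It was also lost after median centring (adjusted p = 0.0855), in the fit of LowMg mice alone (0.077), with group weights (0.0609), with a filter at 1 FPKM (0.0529) and with no filter (0.112).

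Some other matrix genes were higher. Of 20 matrix glycoproteins, cross-linkers and proteases 8 rose and none fell, beside 12.4% and 3.51% of all genes, with 11 rises without replicate 4. Sparc, a collagen binding protein of adipose stroma, was read at 919, 1146, 1247, 1082 and 1266 FPKM in the LowMg-LFD mice and 1816, 2427, 1492, 1888 and 1937 FPKM in the LowMg-HFD mice, with no overlap (log2 fold change 0.75 ± 0.12 (SE), adjusted p = 0.000733). Postn, periostin, was 40.8 ± 10.5 FPKM in LowMg-LFD and 81.7 ± 19.1 FPKM in LowMg-HFD mice, also with no overlap (log2 fold change 0.99 ± 0.21 (SE), adjusted p = 0.0035). Lox, the lysyl oxidase that cross-links collagen, was 16.9 ± 4.39 FPKM in LowMg-LFD and 28.1 ± 7.20 FPKM in LowMg-HFD mice (log2 fold change 0.70 ± 0.18 (SE), adjusted p = 0.0137).

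Among 20 lysosomal genes 11 rose and none fell, with and without replicate 4, beside 12.4% and 3.51% of all genes. Only 4 rose without LowMg-HFD replicate 2 or LowMg-LFD replicate 1 and in the fit of LowMg mice alone. After median centring 7 were called. Ctsz, cathepsin Z, was read at 79.1, 109, 117, 103 and 109 FPKM in the LowMg-LFD mice and 263, 230.3, 134, 121 and 158 FPKM in the LowMg-HFD mice, with no overlap and with replicates 1 and 2 highest (log2 fold change 0.75 ± 0.17 (SE), adjusted p = 0.00679). Of 13 cell cycle genes 7 rose and none fell (5 without replicate 4, 1 without LowMg-HFD replicate 1 or 2 and in the fit of LowMg mice alone), but after median centring 2 were called and after quantile normalization 1. All 7 passed the filter in high fat groups alone. Of 16 endoplasmic reticulum stress genes 1 rose and 1 fell (6.25% each way, beside 12.4% and 3.51% of all genes), with 2 and 1 without replicate 4 and 2 rises without LowMg-LFD replicate 4. Ddit3, the factor CHOP, was 18.2 ± 3.82 FPKM in LowMg-LFD and 25.99 ± 3.50 FPKM in LowMg-HFD mice (log2 fold change 0.50 ± 0.13 (SE), adjusted p = 0.0137), and Asns, asparagine synthetase, was 36.5 ± 5.19 FPKM in LowMg-LFD and 23.8 ± 7.50 FPKM in LowMg-HFD mice (log2 fold change -0.63 ± 0.16 (SE), adjusted p = 0.0119), a call lost in the fit of LowMg mice alone (adjusted p = 0.0522).

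Both groups ate little Mg2+. Of 7 genes of Mg2+ transport tested 1 rose and none fell, near the 12.4% and 3.51% of all genes. Nipa2, a Mg2+ transporter (chromosome 7, 55931287 to 55962476, minus strand), was read at 7.97, 12.3, 10.1, 13.3 and 11.01 FPKM in the LowMg-LFD mice and 16.8, 18.3, 14.5, 19.7 and 16.2 FPKM in the LowMg-HFD mice. All LowMg-HFD values were higher (log2 fold change 0.61 ± 0.19 (SE), adjusted p = 0.0335). Without replicate 4 its adjusted p was 0.0622, and without LowMg-HFD replicates 1 or 2 or LowMg-LFD replicates 1, 3 or 5 it was 0.0633, 0.0789, 0.104, 0.0597 and 0.0539. After median centring none of the 7 passed (Nipa2 0.0517), and Nipa2 was also lost after quantile normalization (0.0535), with group weights (0.0548) and with no filter (0.0922). Without replicate 4 Magt1 was called instead. The channel Trpm7 and the transporters Cnnm2, Cnnm3, Mrs2 and Magt1 did not pass over all mice.

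The 12 largest rises and 12 largest falls were read from the genes called both with and without replicate 4 whose groups did not overlap. Besides Mmp12, Sfrp5, Gpnmb, Atp6v0d2, Trem2 and Itgax, the rises were Ubd, Slc5a7, Vsig8, Tm4sf19, Adam8 and Kcnj14. Ubd, a ubiquitin-like modifier (chromosome 17, 37193892 to 37196095, plus strand), was read at 8.12, 8.77, 1.69, 5.96 and 8.35 FPKM in the LowMg-LFD mice and 114, 190.3, 11.5, 62.5 and 36.6 FPKM in the LowMg-HFD mice, where the mouse numbered 3 was the lowest of each group (log2 fold change 3.07 ± 0.51 (SE), adjusted p = 0.000982). Slc5a7, the high affinity choline transporter, was read at 1.58, 3.39, 3.30, 1.04 and 3.70 FPKM in the LowMg-LFD mice and 21.99, 45.95, 8.84, 22.7 and 20.2 FPKM in the LowMg-HFD mice (log2 fold change 2.70 ± 0.35 (SE), adjusted p = 0.000286). Adam8, a metalloprotease of myeloid cells, was read at 2.49, 4.64, 5.31, 4.38 and 5.86 FPKM in the LowMg-LFD mice and 60.03, 59.3, 12.1, 12.7 and 18.04 FPKM in the LowMg-HFD mice (log2 fold change 2.28 ± 0.37 (SE), adjusted p = 0.000869). Tm4sf19, a membrane protein of the tetraspanin-like family, was under 1 FPKM in all LowMg-LFD mice and was read at 17.3, 13.3, 1.80, 2.21 and 2.49 FPKM in LowMg-HFD (log2 fold change 2.33 ± 0.42 (SE), adjusted p = 0.00166). Vsig8, an immunoglobulin domain protein, was at most 0.39 FPKM in LowMg-LFD and 18.4, 14.7, 2.01, 4.30 and 2.77 FPKM in LowMg-HFD (log2 fold change 2.59 ± 0.42 (SE), adjusted p = 0.000869). Kcnj14, an inward rectifier potassium channel, was 0.878 ± 0.788 FPKM in LowMg-LFD and 7.67 ± 3.87 FPKM in LowMg-HFD mice (log2 fold change 2.16 ± 0.32 (SE), adjusted p = 0.00062). Tm4sf19, Vsig8, Kcnj14 and Atp6v0d2 passed the filter in NormMg-HFD only, and Adam8, Gpnmb, Itgax, Mmp12, Slc5a7, Trem2 and Ubd in high fat groups alone. For genes this low in LowMg-LFD the pseudocount of 1 makes the fitted fold change smaller than the ratio of the means.

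The largest falls, apart from Acaca, Elovl6, Fasn, Tkt and Acacb above, were Cyp2f2, Dennd2d, Acsm3, Gsta3, Hsd11b1, H2-Q10 and Cldn22. Cyp2f2, a cytochrome P450, was read at 24.6, 14.8, 3.85, 28.9 and 8.82 FPKM in the LowMg-LFD mice and 0.99, 1.25, 1.38, 2.67 and 0.74 FPKM in the LowMg-HFD mice, with no overlap (log2 fold change -2.61 ± 0.44 (SE), adjusted p = 0.00105). Dennd2d, a regulator of Rab GTPases, was 26.8 ± 9.38 FPKM in LowMg-LFD and 5.89 ± 3.10 FPKM in LowMg-HFD mice (log2 fold change -2.04 ± 0.30 (SE), adjusted p = 0.000543). Acsm3, an acyl-CoA synthetase for medium chains, was 16.2 ± 4.21 FPKM in LowMg-LFD and 4.66 ± 3.05 FPKM in LowMg-HFD mice (log2 fold change -1.74 ± 0.32 (SE), adjusted p = 0.00184). Gsta3, a glutathione transferase, was read at 277, 165, 194, 148 and 179.6 FPKM in the LowMg-LFD mice and 39.6, 36.7, 107, 80.3 and 87.5 FPKM in the LowMg-HFD mice (log2 fold change -1.53 ± 0.25 (SE), adjusted p = 0.00093). Hsd11b1, which regenerates active glucocorticoid, was read at 162, 158, 88.01, 129 and 90.1 FPKM in the LowMg-LFD mice and 52.6, 47.9, 47.2, 50.6 and 41.1 FPKM in the LowMg-HFD mice, with close agreement within LowMg-HFD (log2 fold change -1.33 ± 0.19 (SE), adjusted p = 0.000543). H2-Q10, a class I gene with near-identical relatives whose reads could be split, was 17.5 ± 6.49 FPKM in LowMg-LFD and 5.02 ± 1.44 FPKM in LowMg-HFD mice (log2 fold change -1.58 ± 0.29 (SE), adjusted p = 0.0017), and Cldn22, a claudin, was 11.7 ± 1.68 FPKM in LowMg-LFD and 4.32 ± 2.92 FPKM in LowMg-HFD mice (log2 fold change -1.40 ± 0.28 (SE), adjusted p = 0.00291). Acsm3, Cldn22, Cyp2f2, Dennd2d, Elovl6 and H2-Q10 passed the filter in low fat groups alone.

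Apart from the testis transcripts of replicate 4, the mice of the LowMg-HFD group also differed among themselves. The 10 tested genes with the largest SD over the 4 mice other than replicate 4 were the immunoglobulin segments Ighj1, Igkv14-126, Iglv1, Ighv1-55 and Ighv11-2, the pseudogenes Rpl10-ps3 and Mpc1-ps, and Ubd, Gpnmb and Atp6v0d2. Igkv14-126 was read at 3.15, 10.6, 125, 11.5 and 29.9 FPKM in LowMg-HFD replicates 1 to 5, highest in replicate 3. Replicate 3 was the highest LowMg-HFD mouse for all 5 segments and also for 6 red cell genes, which summed to 4495 FPKM in it and 1164 to 1468 FPKM in the other 4. Segments and pseudogenes share sequence with near copies, so their values are uncertain, and none of these 7 passed the test. Gpnmb and Atp6v0d2 had another order, with replicates 1 and 2 highest.

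The fat effect was set beside that on normal Mg2+, which rests on other mice. In NormMg-LFD replicates 4 and 5 testis markers summed to 416 and 899 FPKM, against 16.8 and 60.5 FPKM in the other NormMg-LFD mice and 10.7 to 33.5 FPKM in NormMg-HFD. Mesothelial markers summed to 47.0 to 125 FPKM in NormMg-LFD and 12.7 to 27.95 FPKM in NormMg-HFD, and the mouse with pancreas markers is NormMg-LFD replicate 3. NormMg-HFD differed from NormMg-LFD in 3114 genes (37.4%), 2048 higher (24.6%) and 1066 lower (12.8%), against 15.9% on low Mg2+. The count was 2615, 3103 and 2780 without NormMg-LFD replicates 3, 4 and 5. Of the low Mg2+ calls 1035 (12.4% of genes tested) were also called on normal Mg2+ in the same direction, which is 77.9% of the low Mg2+ calls and 33.2% of the normal Mg2+ calls, and 4 (0.048% of genes tested) were called in opposite directions. In 860 of the 1035 the fold change was the smaller on low Mg2+ (931 of 1154 without replicate 4). Of the genes tested 537 passed the filter in NormMg groups alone, so that this count is not independent of the filter. Across the 8336 genes, which are not independent, the log2 fold changes had a Pearson r of 0.745 and a Spearman rho of 0.639.

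The lists differed in how far this held. The median log2 fold change was 0.83 on low and 2.25 on normal Mg2+ for the pan-macrophage list, 1.68 and 3.08 for the lipid-associated macrophage list, and 0.40 and 1.18 for the lysosomal list. For de novo lipogenesis it was -1.004 on low and -0.95 on normal Mg2+, and for oxidative phosphorylation -0.28 and -0.25. For the adipose expansion list it was 0.55 and 0.19. No list was tested for this difference. Of the pan-macrophage genes 4 of 16 passed the filter in high fat groups alone, 2 of them in NormMg-HFD only, and of the lipid-associated genes 6 of 13, 2 of them in NormMg-HFD only, so that the larger medians on normal Mg2+ are not independent of the filter. Sterol genes had 1 rise of 21 on low Mg2+ (4 without LowMg-LFD replicate 3) and 12 on normal Mg2+, beside 12.4% and 24.6% of all genes.

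**Figure D5:**
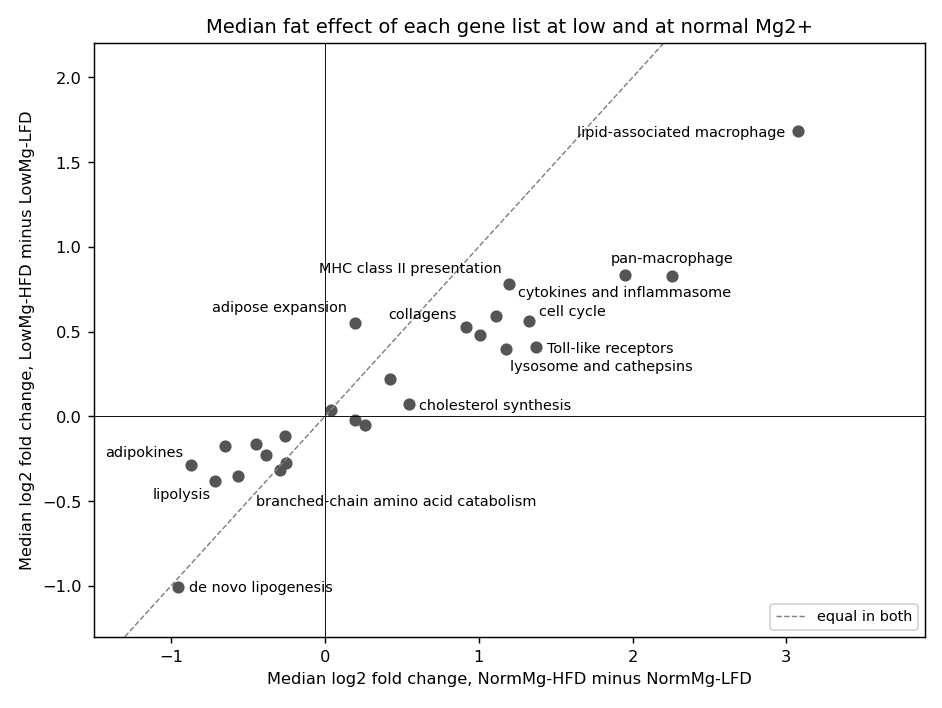
Median log2 fold change of high fat over low fat feeding for each gene list with 5 or more tested members, on normal Mg2+ (horizontal) and on low Mg2+ (vertical), 1 point for each list, some named. The dashed line marks equal values. Pan-macrophage, lipid-associated macrophage, cytokine, cell cycle and lysosome lists lie below the line at the right. The resident macrophage list lies left of 0, and de novo lipogenesis lies close to the line. In the cell cycle list 7 of 13 members passed the filter in NormMg-HFD only, and in the cytokine list 4 of 5 in high fat groups alone. As for the macrophage lists, their positions are not independent of the filter.

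The difference between the fat effects was tested gene by gene as an interaction. It was called for 104 genes (1.25%), 41 with a more positive (0.492%) and 63 with a more negative (0.756%) effect on low Mg2+. This count changed with single mice. It was 34 (0.408%) without replicate 4, 435 and 476 without LowMg-HFD replicates 1 and 2, and 0 without LowMg-HFD replicate 3 or 5. Of the LowMg-LFD mice, replicates 1 to 5 left out in turn gave 192, 11, 38, 6 and 0. Of the normal Mg2+ mice, NormMg-HFD replicates 1 to 5 gave 0, 80, 0, 0 and 318, and NormMg-LFD replicates 2 to 5 gave 0, 0, 66 and 1. By limma 1698 genes (20.4%) had an unadjusted p under 0.05, and 1388 to 1576 in the fits with a count of 0. The 5 largest negative terms were Rgs1, Tph2, Stap1, Basp1 and Myo1f, and among the 5 largest positive ones were Agt, Timp4, Cys1 and Ndrg2. Rgs1, Tph2, Stap1 and Basp1 passed the filter in NormMg-HFD only and Cys1 in NormMg-LFD only, so that the sign of their terms is not independent of the filter, and Myo1f passed in both high fat groups alone. Rgs1, a regulator of G protein signals in leukocytes, was 1.14, 3.66, 0.52, 2.77 and 1.72 FPKM in the LowMg-LFD mice and 32.05, 18.98, 4.08, 6.45 and 4.14 FPKM in the LowMg-HFD mice, a rise on low Mg2+ (log2 fold change 1.94 ± 0.45 (SE), adjusted p = 0.00737) that was larger on normal Mg2+, from 0.448 ± 0.628 to 48.5 ± 14.99 FPKM (interaction -3.18 ± 0.66, adjusted p = 0.0447, 0.0563 without replicate 4). Tph2, the neuronal tryptophan hydroxylase, rose on low Mg2+ by 1.74 (adjusted p = 0.00299, lost after quantile normalization at 0.116) and on normal Mg2+ by 4.40 (interaction adjusted p = 0.0343). Myo1f, a leukocyte myosin, rose on both levels, by 1.34 and 3.17 (interaction adjusted p = 0.0447). Stap1, an adaptor of myeloid and B cells, and Basp1, a membrane bound signalling protein, had log2 fold changes of 0.95 and 0.75 on low Mg2+ that missed the threshold (adjusted p = 0.0693 and 0.0883), and of 3.14 and 2.74 on normal Mg2+. For Stap1 the value without replicate 4 was past it (1.26, adjusted p = 0.00795).

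Of the genes with a positive term, Timp4, an inhibitor of metalloproteases made by adipocytes, was read at 93.5, 126, 177, 133 and 139.6 FPKM in the LowMg-LFD mice and 102, 80.6, 140.0, 114 and 128 FPKM in the LowMg-HFD mice. These overlapped (adjusted p = 0.494), whereas on normal Mg2+ it fell from 156 ± 24.4 to 41.6 ± 15.5 FPKM (interaction 1.71 ± 0.32, adjusted p = 0.0343). Agt, angiotensinogen, which adipocytes secrete, had a log2 fold change of -0.65 on low (adjusted p = 0.184) and -2.58 on normal Mg2+ (interaction adjusted p = 0.0495). Cys1, a ciliary protein, had log2 fold changes of 0.31 on low and -1.24 on normal Mg2+ (interaction adjusted p = 0.0495). Ndrg2, a stress and differentiation gene, was read at 47.98, 95.3, 94.2, 82.4 and 92.5 FPKM in the LowMg-LFD mice and 132, 107, 120.1, 123 and 124 FPKM in the LowMg-HFD mice, a rise (log2 fold change 0.59 ± 0.18 (SE), adjusted p = 0.0308) while on normal Mg2+ it fell by 0.94 on the log2 scale (interaction adjusted p = 0.0343). The rise on low Mg2+ was lost without LowMg-HFD replicate 1 or 5 (adjusted p = 0.0725 and 0.0541) or LowMg-LFD replicate 1 (0.0886), and after either scaling (0.0821 centred and 0.0538 quantile normalized), with group weights (0.0551), in the fit of LowMg mice alone (0.0531) and with no filter (0.0888). Without replicate 4 the interaction adjusted p of these genes other than Rgs1 was 0.0372 for Tph2, 0.0563 for Stap1, 0.0583 for Basp1, 0.059 for Myo1f, 0.0625 for Agt, 0.0372 for Timp4, 0.059 for Cys1 and 0.0347 for Ndrg2.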

How the data were processed

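RNA from the epididymal fat of 19 mice was sequenced for the authors at a sequencing centre as single-end reads, which were mapped with HISAT and Bowtie2 to GRCm38 (mm10) and quantified with RSEM 1.2.31. The deposited table gives FPKM for each gene and mouse, and a deposited summary gives the read count of each library and the percent mapped. FPKM are not counts, so no count test was used. Of 24238 genes, 1 with a cell that is no number was left out, 12 broken lines were joined and 26 symbols turned into dates were restored. Genes with a group mean above 8 FPKM, and above 8 FPKM in 4 or more of that group's mice, were tested. This filter was modelled on that of the study, which names no unit for its level of 8. The study had also left out 1 sample that is kept here, and it retained another number of transcripts. Values were log2(FPKM + 1), and limma 3.58.1 (R 4.3.3) fitted the 4 groups together with an intensity trend, checked on simulated data. Groups and replicates came from the labels.

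The study excluded 1 LowMg-HFD mouse for pancreatic tissue. The labels do not identify it and replicate 4, chosen here for its testis transcripts, is not known to be that mouse, so all 5 were used. The counts of calls for the comparison, the interaction and the lists were repeated without replicate 4. Counts by filter and after other scalings were not. Genes were named as members of pathway and marker lists, as the 12 largest rises and falls called with and without replicate 4 whose groups did not overlap (clone-numbered models left out), as the 5 largest interaction terms in each direction (1 is not reported here), and as the 10 genes most variable among LowMg-HFD mice. List examples were picked after their values were seen, mostly members whose call held under most settings. Members and lists were chosen with earlier results of these data known. Gene positions are from GENCODE M21 (23872 of 24237 genes matched) and promoters from RefSeq (GRCm38.p6). The alternatives tried were another pseudocount (0.1), filter (1 FPKM or none), scaling, trend, weighting of groups, a replicate block, LowMg mice alone and each of the 19 mice left out.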

Additional observations from a re-analysis of the deposited data

Results flagged for a closer look

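In each group of 5 LowMg mice, the highest and lowest values of the 99 genes named with a fold change and of 31 lists were compared with the other 4 by Dixon's criterion, 260 groups in all. It marked 18, where chance at 1 in 20 gives 13. Values are log2(FPKM + 1), averaged over the members for lists, with the range of the other 4 mice in brackets. In LowMg-LFD, replicate 1 stood apart for H2-DMb1 at 3.66 (4.12 to 4.17), Ndrg2 at 5.61 (6.38 to 6.59), oxidative phosphorylation at 7.28 (6.94 to 7.04), collagens at 5.47 (5.89 to 6.05) and the lysosomal list at 6.19 (6.43 to 6.50). Replicate 2 of that group stood apart for Casp1 at 2.56 (2.90 to 3.00), and replicate 3 for Cpt1a at 4.45 (4.83 to 4.97) and Ubd at 1.43 (2.80 to 3.29). In LowMg-HFD, replicate 1 was low for Fasn at 8.27 (9.02 to 9.28) and for de novo lipogenesis at 6.42 (6.82 to 6.94), and replicate 2 was high for Col3a1 at 8.82 (8.33 to 8.43). Replicate 3 was low for Ccl7 at 3.67 (4.09 to 4.21) and high for mast cell markers at 3.14 (2.10 to 2.31) and red cell markers at 9.23 (7.21 to 7.63). Replicate 4 was low for Eci1 at 6.01 (6.25 to 6.30), insulin signalling at 4.87 (5.14 to 5.23) and adipocyte markers at 9.39 (9.73 to 9.80), and replicate 5 was high for Mg2+ transport at 4.05 (3.97 to 3.99).

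The fat effect of 11 named genes differed between Mg2+ levels by the interaction test. It was smaller in size on low Mg2+ for Rgs1 (difference -3.18), Tph2 (-2.66), Stap1 (-2.20), Basp1 (-1.99), Myo1f (-1.83), Adgre1 (-1.72, log2 fold changes 1.18 on low and 2.91 on normal Mg2+, limma adjusted p = 0.0447), Col3a1 (-1.10, 0.53 and 1.62, adjusted p = 0.0447), Agt (1.93) and Timp4 (1.71). For Cys1 (1.55) and Ndrg2 (1.53) the fold change was positive on low and negative on normal Mg2+. Each of the 11 missed the threshold under 11 to 21 of the 27 other settings.

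Outside the genes tested, LowMg-HFD replicate 4 held testis markers at a summed 4577 FPKM, against 21.2 to 221 FPKM in the LowMg-LFD mice. Exocrine pancreas markers summed to 70.8 FPKM in the same mouse, against 23.4 to 66.2 FPKM.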

How the results depend on the processing

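The direction of all 90 called genes named with a fold change held in the 28 other settings, and 75 kept their call in each. The number of genes differing between LowMg-HFD and LowMg-LFD (1329) stayed within 1.5 times in all settings but the fit of LowMg mice alone, which gave 725 (545 higher and 180 lower), and 3 mice. Leaving out 1 mouse gave 807 to 1470 in all, 614 to 1156 higher and 192 to 342 lower, the lowest counts coming without LowMg-HFD replicate 1 or 2 or LowMg-LFD replicate 1. Median centring gave 593 higher and 531 lower, and quantile normalization 549 and 530. The interaction count (104) was 48 with a filter at 1 FPKM, 2 with no filter, 245 centred, 347 quantile normalized, 67 without the trend and 24 with a pseudocount of 0.1, and 0 to 476 with 1 mouse left out. The position of LowMg-HFD on component 1 (49.2%) ranged from 42.7% to 54.6% with 1 mouse left out but was -8.19% with no filter. With LowMg mice alone this position has no value. Cys1, not called, turned from 0.31 to -0.070 on the log2 scale after quantile normalization. The causes of these changes were not tested.

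Replicate numbers did not pair the mice. Correlations of same-numbered LowMg mice in their deviations were -0.183 to 0.109, and no mouse matched its own number best. With a replicate block 1263 genes differed and none of the 90 calls was lost, while the interaction count by limma was 0 (1576 at an unadjusted p under 0.05). Depth was 12986441 to 13027028 reads in the LowMg libraries, and transcripts under the filter, most cytokines among them, were not tested.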
